A study of Mus musculus with 12 samples.

Results

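The genes described here are 9 members of the insulin-like growth factor (IGF) system, taken by gene name from a table of 55862 mouse genes: the ligand gene Igf1, the receptor genes Igf1r and Igf2r, and the binding protein genes Igfbp2, Igfbp3, Igfbp4, Igfbp5, Igfbp6 and Igfbp7. RNA of 12 samples was sequenced, 3 in each of 4 groups, all labelled C57BL/6 with no transgene, deletion or drug named, while the methods of the study give the mice of both NPC groups as C57BL/6J. ASTs were primary astrocytes from the cerebral cortex of newborn mice, grown as a monolayer in medium with serum and collected at day 0 of the sphere culture. A-iSCs were the same kind of cells after 5 days as floating spheres on agarose. The P56-NPC samples came from the adult subependymal zone, dissociated on postnatal day 56, and the P0-NPC samples came from the newborn hippocampus, dissociated on postnatal day 0. Neither NPC group was sorted for a cell type before RNA extraction, so each is a tissue suspension used by the study as a reference for precursor cells. Levels are in FPKM, fragments per kilobase of gene after scaling for library size, so genes of different length can be set beside each other.

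IGF-1 is a secreted growth factor that acts through the tyrosine kinase receptor encoded by Igf1r, which drives the PI3K-Akt and MAPK pathways and promotes growth and survival of neural cells. The receptor encoded by Igf2r has no kinase, and it carries IGF-2 and mannose 6-phosphate tagged enzymes to lysosomes. IGF-binding proteins are secreted proteins that hold IGFs outside the cell, where they prolong their life, keep them from the receptor or release them after cleavage by proteases, and several also act on cells without IGFs.

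The 12 libraries held 17077780 to 24452419 fragments, and a gene 1 kilobase long needed 0.103 to 0.187 FPKM to reach 3 fragments. AST replicate 2 and A-iSC replicate 3 stood farthest from the other libraries of their groups. The dispersion of fragment counts (chi-square per degree of freedom) was 2.61 between AST replicates 1 and 3 but 45.3 and 47.1 with replicate 2, and it was 14.4 between A-iSC replicates 1 and 2 but 113 and 90.3 with replicate 3. The markers of other cell types differed between the groups. The 6 astrocyte markers were above 1 FPKM on average in every group, and their sum was 126 to 146 FPKM in AST samples and 151 to 208 FPKM in P0-NPC samples but 900 to 1974 FPKM in A-iSC samples and 1252 to 1335 FPKM in P56-NPC samples. Most of the A-iSC sum came from Gfap, while Gja1 was at 28.3 FPKM on average beside 24.8 FPKM in ASTs. The 8 microglia markers summed to 144 to 162 FPKM in ASTs, 1343 to 1697 FPKM in A-iSCs, 622 to 661 FPKM in P56-NPCs and 85.7 to 99.1 FPKM in P0-NPCs. Oligodendrocyte markers reached 10825 to 12337 FPKM in P56-NPCs, and neuronal markers reached 803 to 991 FPKM in P0-NPCs. In such bulk samples, fewer cells of a type and less RNA per cell cannot be told apart.

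All 9 genes passed the filter of a mean of 1 FPKM in at least 1 group of every comparison, and each comparison was fitted with limma over all genes that passed. ASTs had the highest mean level for 7 of the 9 genes. The exceptions were Igf1, which was highest in A-iSCs, and Igfbp4, which was highest in P0-NPCs. P56-NPCs had the lowest mean for 8 of the 9 genes, the exception being Igfbp6. Mitochondrial genes took 16.5% to 17.6% of the fragments in the P56-NPC libraries and 2.94% to 7.03% in the other 9, and the part of this difference in the P56-NPC levels was not tested.

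**Figure D1:**
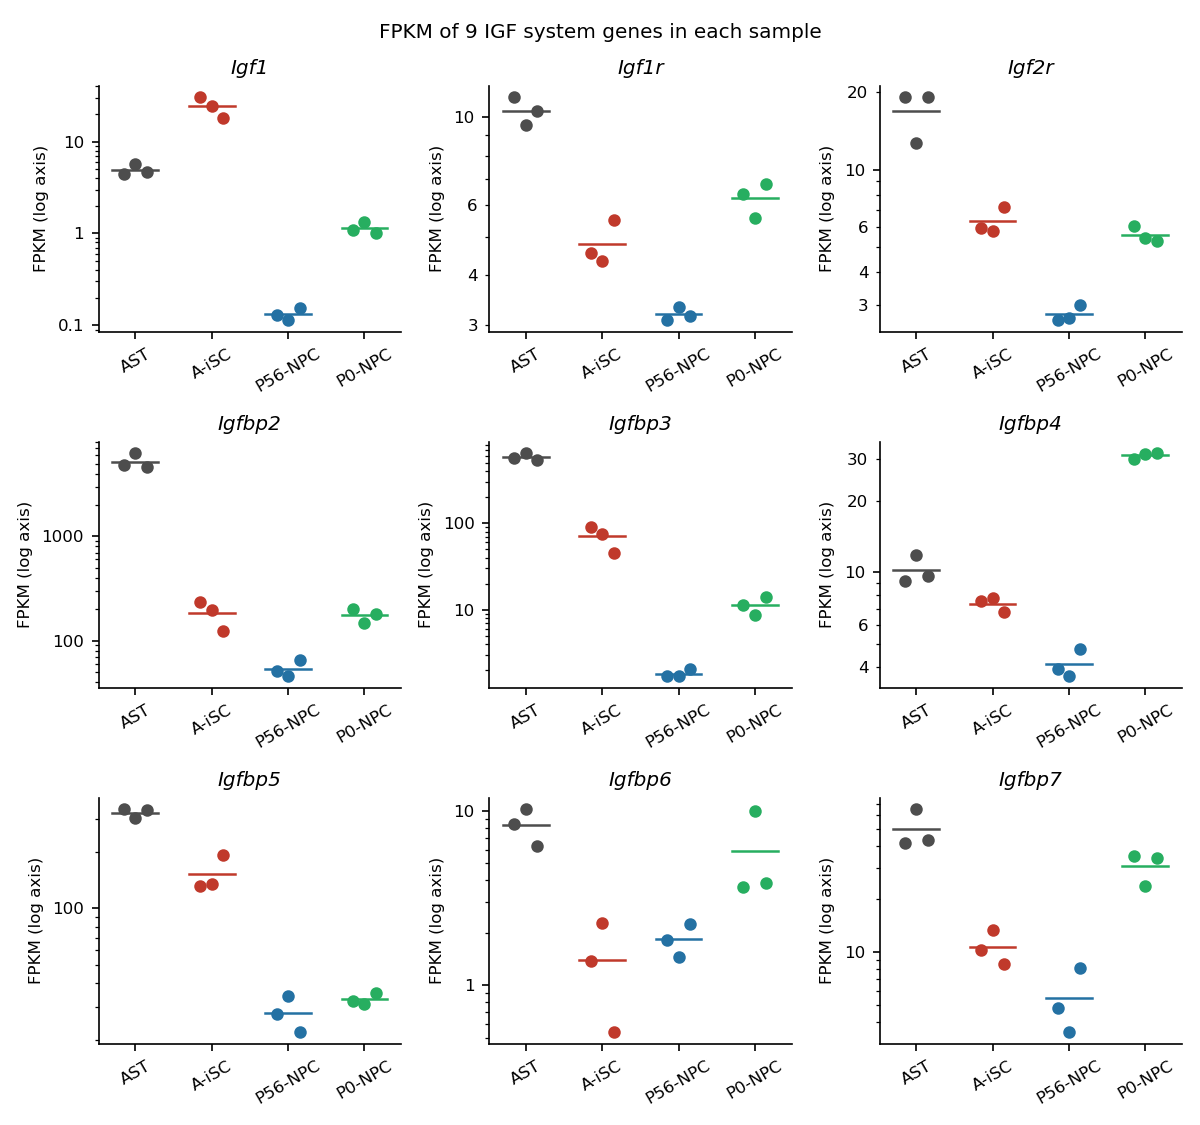
FPKM of each of the 9 genes (log axis) in every sample of the 4 groups, with 1 point per sample and a line at the group mean. The line of ASTs lies highest in 7 panels, with all 3 AST points above all others in 6 of them and P0-NPC replicate 2 above 2 AST points for Igfbp6. Igf1 is highest in A-iSCs at 18.0 to 30.5 FPKM and Igfbp4 is highest in P0-NPCs at 30.2 to 31.9 FPKM.

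A-iSCs and ASTs differed both in the form of culture and in the days in culture, which cannot be told apart. Between them, 1 gene was higher in A-iSCs (Igf1) and 8 were lower, with an adjusted p under 0.05 in all 9. Of the 14087 genes tested, 54.8% were called in either direction, 25.2% higher and 29.6% lower. That split was 3550 higher and 4165 lower genes, and it became 4563 and 2989 when samples were scaled by library size alone. The median log2 fold change was -1.28 over the 9 genes and -0.059 over all genes tested, and 7 of the 9 differed by more than 1 on the log2 scale, beside 21.4% of all genes. The 3 values of one group lay apart from the 3 of the other for all 9 genes, as they did for 62.7% of all genes. Without A-iSC replicate 3 all 9 genes were called, and without AST replicate 2 the call of Igfbp4 was lost and 8 remained.

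Set against ASTs, P56-NPCs were lower for 9 of the 9 genes, where 78.9% of 15146 genes were called, 39.1% higher and 39.8% lower. P0-NPCs were higher for Igfbp4, lower for 7 genes and not called for Igfbp6, where 79% of 15010 genes were called, 38.1% higher and 40.9% lower. With library size as the only scaling, P56-NPCs had 4569 higher and 7559 lower genes, and P0-NPCs had 7106 higher and 4860 lower genes. These comparisons and that of A-iSCs share the 3 AST samples and are not independent of each other. The median log2 fold changes of the 9 genes were -2.39 in P56-NPCs and -1.42 in P0-NPCs, and those of all genes tested were -0.030 and -0.068.

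Between A-iSCs and P56-NPCs, 8 genes were higher in A-iSCs and Igfbp6 was not called, where 61% of 15044 genes were called, 30.1% higher and 30.9% lower. Between A-iSCs and P0-NPCs, Igf1, Igfbp3 and Igfbp5 were higher in A-iSCs, Igf1r, Igfbp4, Igfbp6 and Igfbp7 were lower, and Igf2r and Igfbp2 were not called, where 65.1% of 15170 genes were called, 31.5% higher and 33.6% lower. Between the NPC groups, 8 genes were lower in P56-NPCs and Igfbp5 was not called, where 78.8% of 15394 genes were called, 39.7% higher and 39% lower. Scaling by library size alone moved this background to 8329 higher and 2857 lower genes in A-iSCs against P56-NPCs, and to 3438 higher and 9428 lower genes in P56-NPCs against P0-NPCs. The labels do not say whether the 3 samples of a group came from separate cultures or animals, so the p-values measure only the spread between these samples.

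**Figure D2:**
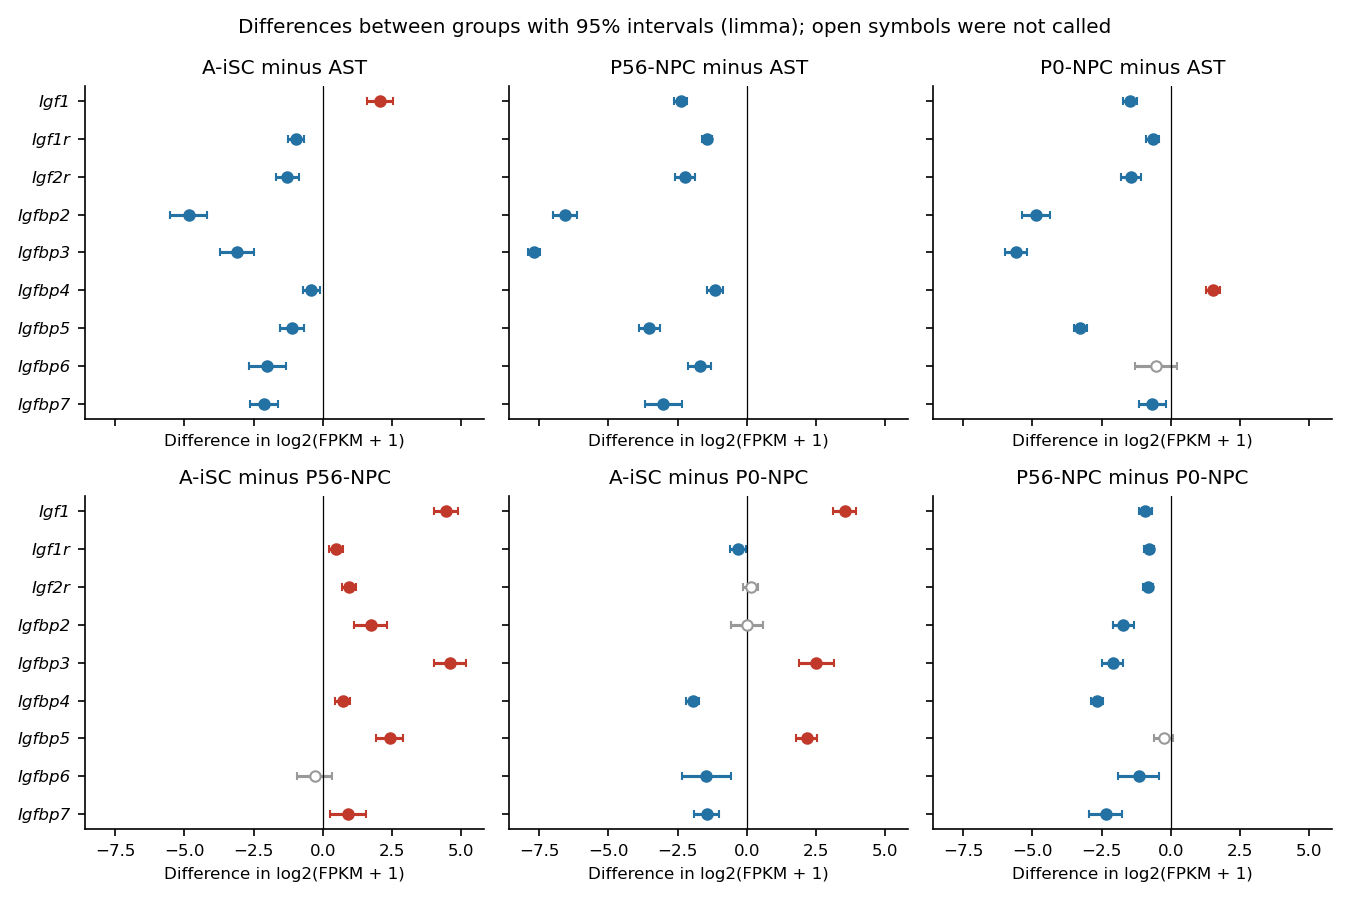
Difference in log2(FPKM + 1) between groups for each gene in the 6 comparisons, with 95% intervals from limma. Red points were called higher and blue points lower in the first group named, and open grey points were not called. The points furthest from 0 are Igfbp3 and Igfbp2 in P56-NPCs against ASTs, at -7.70 and -6.58, followed by Igfbp3 in P0-NPCs against ASTs at -5.60.

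Igf1 (ENSMUSG00000020053, chr10:87858265-87937042, GRCm38, plus strand) encodes the ligand. It was measured at 4.48, 5.75 and 4.62 FPKM in ASTs, 30.5, 24.2 and 18.0 in A-iSCs, 0.128, 0.113 and 0.153 in P56-NPCs, and 1.09, 1.33 and 1.02 in P0-NPCs. No pair of groups overlapped, and the order from A-iSCs to ASTs, P0-NPCs and P56-NPCs was called at each step. The mean rose 4.90-fold from 4.95 ± 0.698 FPKM in ASTs to 24.2 ± 6.24 FPKM in A-iSCs (SD, n = 3), a log2 fold change of 2.06 ± 0.195 (SE, adjusted p = 1.26e-04). Igf1 was thus the only one of the 9 genes that was higher in A-iSCs than in each of the other groups. The mean of A-iSCs was 184-fold that of P56-NPCs and 21.2-fold that of P0-NPCs (adjusted p = 1.90e-06 and 2.83e-06). The P56-NPC values rest on 18 to 25 fragments per sample, and the log2(FPKM + 1) scale understates differences at such low levels. The antisense gene Igf1os, which overlaps Igf1, was at most 0.500 FPKM by group mean.

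The microglia markers moved with Igf1 between ASTs and A-iSCs. All 8 had a higher mean in A-iSCs, among them C1qa (87.1 and 1029 FPKM), Csf1r (7.61 and 87.5 FPKM) and Cx3cr1 (7.17 and 61.1 FPKM), and none was at 0 in either group. Of the A-iSC samples, replicate 1 had the highest Igf1 and the highest marker sum. The pattern did not extend to P56-NPCs, where the markers summed to 622 to 661 FPKM with Igf1 below 0.2 FPKM. The part of these cells in the Igf1 level was not tested.

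A promoter window of Igf1 is shown because Igf1 alone of the 9 genes rose from ASTs to A-iSCs. It lies inside the span of the gene given above, and levels per gene do not show which start site these cells used. The window runs from 250 bases before to 50 bases after a RefSeq start site (GRCm38.p6, chr10:87860861-87861160, plus strand), it holds 52.3% G and C, and its capitals mark the reverse complement of CCAAT, which 37.4% of all 32851 promoters hold on either strand.
Igf1: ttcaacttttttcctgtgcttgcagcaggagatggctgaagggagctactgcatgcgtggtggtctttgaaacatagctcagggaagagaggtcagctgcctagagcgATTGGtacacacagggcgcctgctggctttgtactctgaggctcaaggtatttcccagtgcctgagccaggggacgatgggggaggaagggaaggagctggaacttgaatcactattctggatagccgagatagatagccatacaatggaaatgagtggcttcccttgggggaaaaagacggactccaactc

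**Figure D3:**
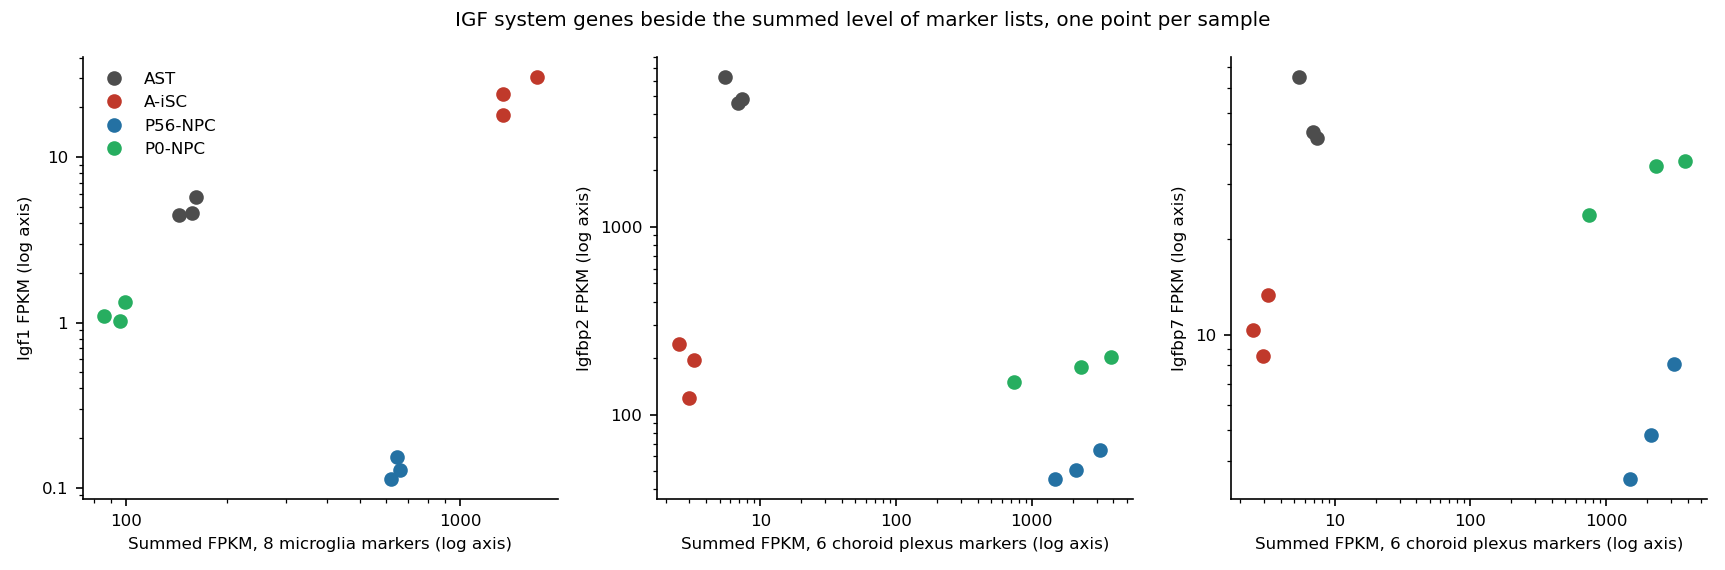
Level of Igf1 beside the summed level of 8 microglia markers, and of Igfbp2 and Igfbp7 beside that of 6 choroid plexus markers, all in FPKM on log axes with 1 point per sample. A-iSCs are high for both Igf1 and the microglia markers, P56-NPCs combine high microglia markers with the lowest Igf1, and within each NPC group Igfbp2 and Igfbp7 are ordered as the choroid plexus markers are.

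Both receptor genes were highest in ASTs. Igf1r (ENSMUSG00000005533, chr7:67952827-68233668, plus strand) had 11.2, 9.56 and 10.4 FPKM in ASTs, 4.54, 4.34 and 5.51 in A-iSCs, 3.08, 3.33 and 3.16 in P56-NPCs, and 6.42, 5.58 and 6.78 in P0-NPCs. No groups overlapped, although the highest A-iSC value and the lowest P0-NPC value lay close. From ASTs to A-iSCs the receptor fell by 0.98 ± 0.122 on the log2 scale (SE, adjusted p = 4.85e-04), and it was 2.17-fold lower as a ratio of means. Between A-iSCs and P0-NPCs the log2 fold change was -0.33 with an adjusted p = 0.0493, which was 0.0516 with a pseudocount of 0.1, 0.0763 with no filter on low values and between 0.0515 and 0.161 without any one of A-iSC replicates 1 and 2 and P0-NPC replicates 1, 2 and 3.

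Igf2r (ENSMUSG00000023830, chr17:12682406-12769664, minus strand) is an imprinted gene in the mouse, and the antisense transcript Airn overlaps it. Its levels were 19.0, 12.7 and 19.1 FPKM in ASTs, 5.96, 5.77 and 7.17 in A-iSCs, 2.61, 2.67 and 2.99 in P56-NPCs, and 6.03, 5.45 and 5.27 in P0-NPCs. ASTs lay above all other samples, P56-NPCs below them, and the A-iSC and P0-NPC values overlapped. The fall from ASTs to A-iSCs was 2.69-fold (log2 fold change -1.28 ± 0.178, adjusted p = 8.10e-04). The difference between A-iSCs and P0-NPCs was 0.15 on the log2 scale, with a 95% interval from -0.13 to 0.42 (adjusted p = 0.305). Airn was listed at 0.304 to 0.856 FPKM by group mean, and because the library kit is not stated to keep strand, reads of the 2 transcripts cannot be told apart where they overlap.

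The level of Igf2r relative to Igf1r also differed between groups. The ratio was 1.62 ± 0.265 in ASTs, 1.31 ± 0.0141 in A-iSCs, 0.866 ± 0.0750 in P56-NPCs and 0.898 ± 0.107 in P0-NPCs (SD, n = 3). By FPKM, Igf2r thus lay above Igf1r in all 6 samples of cultured cells and below it in all 6 NPC suspensions. Which gene lies higher depends on the gene lengths used, 9308 bases for Igf2r and 16791 bases for Igf1r. In fragments, A-iSCs had 1119, 1276 and 1789 for Igf2r beside 1537, 1732 and 2481 for Igf1r. The difference of the ratio between groups does not depend on these lengths. The ratio of receptor to ligand, Igf1r over Igf1, was lowest in A-iSCs at 0.211 ± 0.0831 and highest in P56-NPCs at 24.7 ± 4.43, with 2.14 ± 0.433 in ASTs and 5.59 ± 1.27 in P0-NPCs.

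Igfbp2 (ENSMUSG00000039323, chr1:72824503-72852474, plus strand), which encodes an IGF-binding protein abundant in fetal brain and in cerebrospinal fluid, showed the highest level of the 9 genes. It stood at 4801, 6283 and 4591 FPKM in ASTs, 236, 195 and 122 in A-iSCs, 50.8, 45.4 and 64.8 in P56-NPCs, and 203, 148 and 180.2 in P0-NPCs. In ASTs it ranked 1 among the 21913 protein-coding genes of the nuclear genome in each of the 3 samples and took 0.933% ± 0.140 of all fragments (SD, n = 3). Its rank was 127 to 251 in A-iSCs, 99 to 147 in P0-NPCs and 678 to 1019 in P56-NPCs. From 5225 ± 923 FPKM in ASTs the mean fell to 184 ± 57.8 FPKM in A-iSCs, a 28.3-fold difference (log2 fold change -4.85 ± 0.284, adjusted p = 1.51e-05). The size of this change exceeded that of 99.9% of the genes tested. A-iSCs and P0-NPCs overlapped and differed by 0.017 on the log2 scale, with a 95% interval from -0.57 to 0.60 (adjusted p = 0.957), while P56-NPCs lay below both.

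Igfbp3 (ENSMUSG00000020427, chr11:7206086-7213923, minus strand) encodes the main carrier of IGFs in serum, where it forms a ternary complex with the product of Igfals. Values were 573, 645 and 543 FPKM in ASTs, 89.8, 75.6 and 45.1 in A-iSCs, 1.69, 1.73 and 2.06 in P56-NPCs, and 11.2, 8.58 and 14.1 in P0-NPCs. The groups did not overlap, and each step of the order from ASTs to A-iSCs, P0-NPCs and P56-NPCs was called. The fall in A-iSCs was 8.36-fold (log2 fold change -3.10 ± 0.256, adjusted p = 6.55e-05), and A-iSCs kept 38.4-fold the level of P56-NPCs and 6.21-fold that of P0-NPCs (adjusted p = 6.03e-06 and 1.14e-04). The difference of P56-NPCs from ASTs, 321-fold as a ratio of means, was the widest among the 9 genes. Igfals stayed below 0.2 FPKM in every sample.

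Igfbp5 (ENSMUSG00000026185, chr1:72857932-72874884, minus strand) encodes a binding protein that attaches to extracellular matrix. It measured 338, 302 and 333 FPKM in ASTs, 131, 135 and 191 in A-iSCs, 27.3, 34.1 and 21.9 in P56-NPCs, and 32.1, 30.9 and 35.4 in P0-NPCs. ASTs and A-iSCs lay apart from each other and above both NPC groups, which overlapped. The decrease from ASTs to A-iSCs was 2.13-fold (log2 fold change -1.10 ± 0.184, adjusted p = 0.00193), smaller than that of Igfbp2 or Igfbp3. A-iSCs were 5.49-fold above P56-NPCs and 4.65-fold above P0-NPCs (adjusted p = 6.19e-05 and 1.92e-05). P56-NPCs and P0-NPCs differed by -0.25 on the log2 scale with a 95% interval from -0.60 to 0.092 (adjusted p = 0.15), and this became -0.41 (adjusted p = 0.0149) without P56-NPC replicate 2 and -0.86 (adjusted p = 4.42e-04) when samples were scaled by library size alone.

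Igfbp4 (ENSMUSG00000017493, chr11:99041244-99054392, plus strand) encodes a binding protein that is cleaved by the protease PAPP-A to release IGF. It had 9.18, 11.8 and 9.67 FPKM in ASTs, 7.56, 7.82 and 6.79 in A-iSCs, 3.91, 3.64 and 4.77 in P56-NPCs, and 30.2, 31.8 and 31.9 in P0-NPCs. P0-NPCs were far above every other sample and varied little. Their mean of 31.3 ± 0.932 FPKM was 3.06-fold that of ASTs, 4.24-fold that of A-iSCs and 7.62-fold that of P56-NPCs (adjusted p = 4.19e-06, 2.83e-06 and 2.00e-07). The difference of A-iSCs from ASTs was only -0.42 ± 0.126 (adjusted p = 0.0269). That call was lost when samples were scaled by library size alone (adjusted p = 0.163) and without any one of 4 of the 6 samples (adjusted p = 0.0530 to 0.0649), AST replicates 2 and 3 and A-iSC replicates 1 and 2. In P0-NPCs the endothelial markers summed to 75.5 to 79.5 FPKM and the mural markers to 112 to 126 FPKM, against at most 6.65 and 17.8 FPKM in any other sample, and all 6 of each list exceeded 1 FPKM there. The mural sum was carried by Vtn and Rgs5, whereas Pdgfrb was at 12.2 FPKM on average beside 11.1 FPKM in ASTs, and Cspg4 was at 2.23 FPKM beside 2.92 FPKM in ASTs and 5.85 FPKM in P56-NPCs. Neuronal markers were also highest in P0-NPCs, with sums of 803 to 991 FPKM against at most 164 FPKM in any other sample, led by Tubb3, although Snap25 and Syt1 of that list were higher on average in P56-NPCs. Of the 6 fibroblast markers, Col1a2, Col3a1, Dcn and Lum were highest in P0-NPCs, with means from 7.42 FPKM for Lum to 34.9 FPKM for Col3a1. The part of these cells in the Igfbp4 level was not tested.

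Igfbp6 (ENSMUSG00000023046, chr15:102144362-102149511, plus strand) encodes a protein that prefers IGF-2 to IGF-1. The samples had 8.47, 10.2 and 6.29 FPKM in ASTs, 1.38, 2.27 and 0.537 in A-iSCs, 1.81, 1.46 and 2.24 in P56-NPCs, and 3.66, 10.04 and 3.89 in P0-NPCs. P0-NPC replicate 2 stood at the level of ASTs, well above the other P0-NPC samples. The decrease from ASTs to A-iSCs was 5.97-fold (log2 fold change -2.01 ± 0.286, adjusted p = 9.26e-04), on 16 to 60 fragments per A-iSC sample. P0-NPCs and ASTs differed by -0.54, with a 95% interval from -1.31 to 0.22 (adjusted p = 0.162), and by -0.95 (adjusted p = 0.00390) without P0-NPC replicate 2. A-iSCs and P56-NPCs overlapped and differed by -0.30, with an interval from -0.94 to 0.34 (adjusted p = 0.363).

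Igfbp7 (ENSMUSG00000036256, chr5:77349240-77408041, minus strand) encodes a matrix protein of the same superfamily that binds IGFs weakly. ASTs had 41.9, 65.1 and 43.6 FPKM, A-iSCs 10.3, 13.3 and 8.55 FPKM, P56-NPCs 4.81, 3.50 and 8.08 FPKM, and P0-NPCs 35.3, 23.9 and 34.1 FPKM. Each group lay apart from the others, by a narrow margin between A-iSCs and P56-NPCs. The fall from ASTs to A-iSCs was 4.67-fold (log2 fold change -2.12 ± 0.217, adjusted p = 1.86e-04). P0-NPCs were 1.61-fold below ASTs (adjusted p = 0.0176), a call that was lost under scaling by library size alone (adjusted p = 0.104) and without P0-NPC replicate 2 (adjusted p = 0.0660). A-iSCs were 1.96-fold above P56-NPCs (adjusted p = 0.0233), and that call was lost with no filter on low values (adjusted p = 0.0550) and without any one of 4 of the 6 samples (adjusted p = 0.0529 to 0.0796), replicates 1 and 2 of each group. The protein-coding gene Polr2b overlaps Igfbp7 on the opposite strand at 13.6 to 23.5 FPKM by group mean, and shared reads cannot be told apart without strand.

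Markers of the choroid plexus moved with Igfbp2 and Igfbp7 within the NPC groups. The 6 markers, led by Ttr, summed to 2127, 1493 and 3180 FPKM in P56-NPC replicates 1 to 3 and to 3836, 744 and 2313 FPKM in P0-NPC replicates 1 to 3. In both groups the samples fell in the same order for Igfbp2 and for Igfbp7 as for the markers. Within P56-NPCs, Igf1, Igfbp4 and Igfbp6 also followed that order of 3 samples. Igfbp2 was at 53.6 FPKM on average in P56-NPCs and 177 FPKM in P0-NPCs, and Igfbp7 at 5.47 and 31.1 FPKM. The marker sums were alike in both groups, with means of 2267 and 2298 FPKM. In ASTs and A-iSCs the same markers summed to 2.49 to 7.37 FPKM, and the highest of them in ASTs were Ttr, Aqp1 and Folr1 at means of 2.58, 2.03 and 1.74 FPKM. The 6 fibroblast markers summed to 147 to 198 FPKM in AST samples 9.96 to 11.8 FPKM in A-iSC samples, 24.8 to 27.6 FPKM in P56-NPC samples and 117 to 131 FPKM in P0-NPC samples. The difference between the cultures was carried by the collagen gene Col1a1, which was at 158 FPKM on average in ASTs and 2.98 FPKM in A-iSCs. Col1a2 and Col3a1 were also lower in A-iSCs, but Pdgfra went the other way from 0.373 to 5.50 FPKM, and Dcn and Lum were at most 0.248 FPKM on average in both groups. Of the markers of neural stem or progenitor cells, Vim (2186 FPKM in ASTs, 1038 in A-iSCs, 142 in P0-NPCs and 41.4 in P56-NPCs on average) and Nes (196, 70.1, 26.9 and 3.76 FPKM) had the same order of groups as the binding proteins added together, while Sox2, Pax6 and Hopx did not. The endothelial and mural sums, given above beside Igfbp4, were highest in P0-NPCs, where Igfbp7 averaged 31.1 FPKM beside 50.2 FPKM in ASTs. The part of these cells in the levels of the binding proteins was not tested.

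Added together, the 6 binding protein genes reached 6205 ± 971 FPKM in ASTs, 427 ± 51.0 FPKM in A-iSCs, 94.6 ± 7.94 FPKM in P56-NPCs and 290 ± 32.2 FPKM in P0-NPCs (SD, n = 3). The make-up of this sum differed between groups. Igfbp2 took 84.0% ± 1.58 of it in ASTs, 42.6% ± 8.84 in A-iSCs, 56.4% ± 5.96 in P56-NPCs and 61.0% ± 3.02 in P0-NPCs. Igfbp5 took 5.33% ± 1.05 in ASTs but 36.7% ± 12.6 in A-iSCs and 29.8% ± 8.47 in P56-NPCs, with 11.4% ± 1.06 in P0-NPCs. In A-iSC replicate 3, Igfbp5 was the largest share at 51.1%, above Igfbp2 at 32.6%, whereas Igfbp2 led in the other 11 samples. Igfbp3 kept a larger share in the cultures, 9.52% in ASTs and 16.2% in A-iSCs, than in P56-NPCs (1.93%) and P0-NPCs (3.88%). P0-NPCs were set apart by Igfbp4 and Igfbp7, at 10.9% and 10.7% of the sum.

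**Figure D4:**
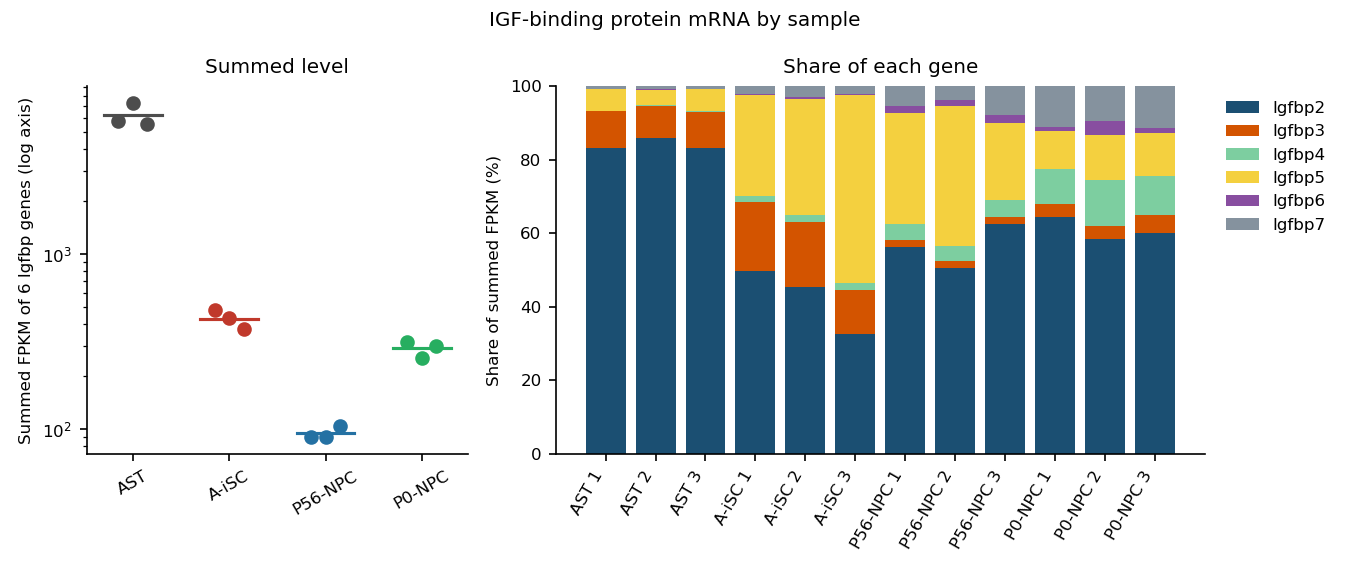
Left, the summed FPKM of the 6 binding protein genes (log axis), 1 point per sample with a line at the group mean. Right, the share of each gene in that sum in percent, 1 bar per sample, in which Igfbp2 fills 83.1% to 85.9% of every AST bar and 32.6% to 49.6% of the A-iSC bars.

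The promoters of 4 binding protein genes are shown because 3 of them (Igfbp2, Igfbp3 and Igfbp5) were lower in all other groups than in ASTs while Igfbp4 was higher in P0-NPCs. Igfbp7, which is not shown, was also called lower than in ASTs in all other groups. Its call in P0-NPCs was lost under scaling by library size alone. Each window runs from 250 bases before to 50 bases after the RefSeq start site in GRCm38.p6, read along the gene: chr1:72824230-72824529 (plus), chr11:7213874-7214173 (minus), chr1:72874816-72875115 (minus) and chr11:99040994-99041293 (plus). Capitals mark matches on either strand to 6 motifs, none of which contains another. The GC box GGGCGG was found in 35.7% of all promoters, and the TATA box TATAAA was in 13.6% of them. The CCAAT box was in 37.4%, and the E-box CACGTG was in 7.15%. The AP-1 motif TGACTCA was in 5.2%, and the TEAD motif GGAATG was in 14.7%.
Igfbp2: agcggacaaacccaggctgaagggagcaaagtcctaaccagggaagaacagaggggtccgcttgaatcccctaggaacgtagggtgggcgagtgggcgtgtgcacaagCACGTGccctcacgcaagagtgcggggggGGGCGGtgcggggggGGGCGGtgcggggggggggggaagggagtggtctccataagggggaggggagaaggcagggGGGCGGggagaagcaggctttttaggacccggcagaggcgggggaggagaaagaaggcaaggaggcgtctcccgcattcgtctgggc
Igfbp3: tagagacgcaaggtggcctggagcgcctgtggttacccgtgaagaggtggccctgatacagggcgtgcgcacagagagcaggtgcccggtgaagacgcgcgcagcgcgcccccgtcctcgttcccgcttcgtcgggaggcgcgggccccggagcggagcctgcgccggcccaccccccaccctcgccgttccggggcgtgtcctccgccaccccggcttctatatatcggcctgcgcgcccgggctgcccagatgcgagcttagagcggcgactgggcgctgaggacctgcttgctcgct
Igfbp5: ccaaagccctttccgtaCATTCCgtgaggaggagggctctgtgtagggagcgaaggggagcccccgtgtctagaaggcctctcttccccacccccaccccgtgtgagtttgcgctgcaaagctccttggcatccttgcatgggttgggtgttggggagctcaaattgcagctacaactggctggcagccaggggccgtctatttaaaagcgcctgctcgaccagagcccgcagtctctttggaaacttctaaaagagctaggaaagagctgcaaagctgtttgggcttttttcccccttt
Igfbp4: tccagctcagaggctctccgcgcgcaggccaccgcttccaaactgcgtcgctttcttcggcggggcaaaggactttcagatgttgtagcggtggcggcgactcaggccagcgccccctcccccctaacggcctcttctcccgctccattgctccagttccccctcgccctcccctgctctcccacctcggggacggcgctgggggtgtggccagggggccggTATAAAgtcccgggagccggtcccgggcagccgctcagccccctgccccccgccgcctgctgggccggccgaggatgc
The windows shown share none of the 6 motifs, but the GC box of Igfbp2 is also in the window of Igfbp7, which is not shown. Igfbp2 held 3 GC boxes and 1 E-box, Igfbp4 held a TATA box starting 28 bases before the start site, Igfbp5 held GGAATG on the opposite strand, and Igfbp3 held no match. The G and C content was 67% for Igfbp2, 71.7% for Igfbp3, 56.3% for Igfbp5 and 71.3% for Igfbp4, beside a median of 52.7% over all promoters. A further RefSeq promoter of Igfbp2 (chr1:72825137-72825436) held 1 AP-1 motif. Of the other members, Igf1r held 2 GC boxes, Igf2r held 3 GC boxes and 2 E-boxes, Igfbp7 held 4 GC boxes, and Igfbp6 held 1 TATA box and 2 CCAAT boxes.

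Igfbp2 and Igfbp5 lie tail to tail on chromosome 1, with 5457 bases between them. Both were highest in ASTs, but the ratio of Igfbp2 to Igfbp5 ranged from 16.3 ± 3.93 in ASTs to 1.30 ± 0.597 in A-iSCs, 2.05 ± 0.833 in P56-NPCs and 5.40 ± 0.805 in P0-NPCs. Igfbp3 lies 3539 bases from Igfbp1 on chromosome 11. Igfbp1 had no fragments in ASTs or A-iSCs, where 3 fragments would give 0.0734 to 0.117 FPKM, and at most 0.135 FPKM in any NPC sample.

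A further 32 genes of the pathway were listed, of which 24 were tested between A-iSCs and ASTs. Of these, 4 were higher in A-iSCs, 14 were lower and 6 were not called, where 25.2% of all genes tested were higher and 29.6% lower, and the median log2 fold change was -0.51 beside -0.059 over all genes. The proteases and protease inhibitors that control binding proteins contributed 5 of the lower genes and 1 higher gene among 6 tested. Adam12 and Adam9, which encode metalloproteases, fell by 2.61 and 2.14 on the log2 scale (adjusted p = 1.3e-05 and 2.91e-04). Htra1, a secreted serine protease, fell by 1.58 (adjusted p = 4.95e-04), and Pappa, which encodes the protease of IGFBP-4, fell by 0.79 from 1.71 ± 0.210 to 0.577 ± 0.177 FPKM (adjusted p = 0.00191). Htra3 went the other way, from 0.479 ± 0.106 to 3.98 ± 0.297 FPKM (log2 fold change 1.75, adjusted p = 2.2e-05).

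Among relatives of the binding proteins, Crim1, a membrane protein with an IGF-binding protein motif, fell by 2.88 in A-iSCs (62.5 ± 7.12 to 7.71 ± 1.86 FPKM, adjusted p = 1.8e-05). Of 9 receptors and adaptors tested, 1 was higher, 4 were lower and 4 were not called in A-iSCs, which put the share called near the 54.8% of all genes. The insulin receptor gene Insr, the closest relative of Igf1r, was at 5.03 ± 0.591 FPKM in ASTs, 4.38 ± 0.112 FPKM in A-iSCs, 4.52 ± 0.170 FPKM in P56-NPCs and 5.26 ± 0.455 FPKM in P0-NPCs, and its adjusted p ranged from 0.0602 to 0.724 over the 6 comparisons by limma. Grb10, an imprinted gene that encodes an inhibitory adaptor of the insulin and IGF-1 receptors, fell from 8.23 ± 1.05 to 1.29 ± 0.234 FPKM (log2 fold change -2.01, adjusted p = 2.6e-05) and was at 9.83 ± 1.34 FPKM in P0-NPCs. Hmga2, a chromatin protein that activates transcription of the IGF mRNA-binding protein gene Igf2bp2, fell by 3.30, the largest change of the list, from 17.2 ± 1.43 to 0.859 ± 0.272 FPKM (adjusted p = 6e-06).

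**Figure D5:**
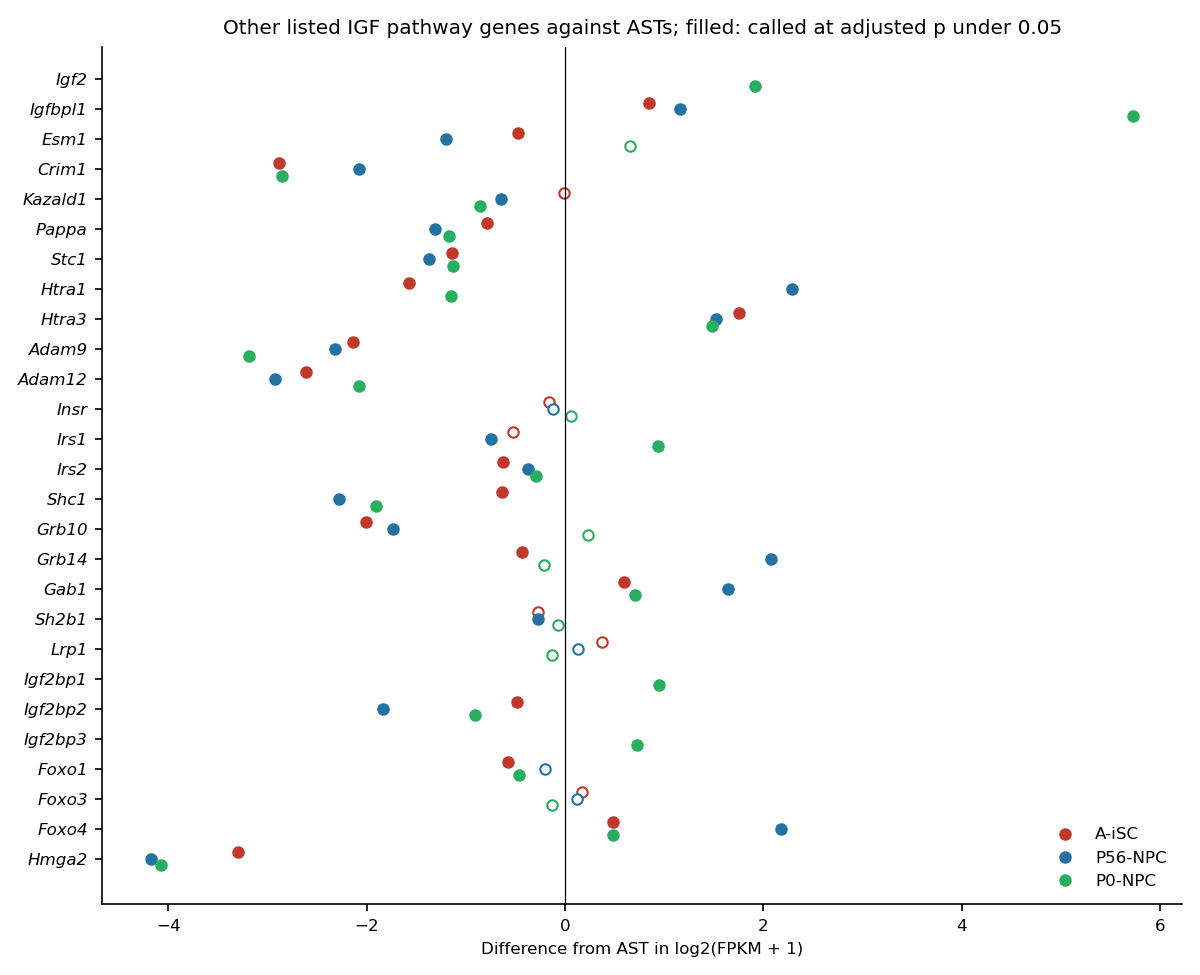
Difference from ASTs in log2(FPKM + 1) for the other listed pathway genes that passed the filter, with red for A-iSCs, blue for P56-NPCs and green for P0-NPCs, and open symbols for genes not called. Hmga2 lies lowest in all 3 groups, at -3.30 in A-iSCs, -4.17 in P56-NPCs and -4.08 in P0-NPCs, and Igfbpl1 lies highest at 5.73 in P0-NPCs.

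Against ASTs, 6 of 24 tested genes of the list were higher and 14 lower in P56-NPCs, where 39.1% of all genes were higher and 39.8% lower. In P0-NPCs 8 of 27 were higher and 12 lower, near the 38.1% and 40.9% of all genes. Htra1 reached 241 ± 8.76 FPKM in P56-NPCs, which was 3.87 on the log2 scale above A-iSCs (adjusted p = 1e-06), beside 49.4 ± 10.9 FPKM in ASTs. Igfbpl1, a secreted relative of the binding proteins, reached 262 ± 44.5 FPKM in P0-NPCs against 3.91 ± 0.154 FPKM in ASTs, with 6.77 to 9.33 FPKM in A-iSCs (log2 fold change against ASTs 5.73, adjusted p = 2.60e-08). Igf2, the other ligand gene, was at 2.78 ± 0.274 FPKM in P0-NPCs and had no fragments in any AST sample. Against the 3 fragments per library that could go unseen there, P0-NPCs were at least 89-fold higher. In A-iSCs and P56-NPCs Igf2 was at most 0.111 FPKM, so Igf1 was the more abundant ligand mRNA in every AST, A-iSC and P56-NPC sample, and Igf2 was in every P0-NPC sample. In P56-NPCs both rested on few fragments.

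Between A-iSCs and P56-NPCs, 3 of 19 tested pathway genes were higher and 6 lower, beside 30.1% and 30.9% of all genes. Between A-iSCs and P0-NPCs, 4 of 24 were higher and 9 lower, beside 31.5% and 33.6% of all genes. P56-NPCs were higher than P0-NPCs for 8 of 24 genes and lower for 11, near the 39.7% and 39% of all genes. All 3 genes of IGF mRNA-binding proteins, Igf2bp1, Igf2bp2 and Igf2bp3, were lower in P56-NPCs than in P0-NPCs, and Igf2bp1 was at 1.54 to 2.38 FPKM in P0-NPCs, with no fragments in P56-NPCs.

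The genes whose levels followed each member most closely over the 12 samples were found by Pearson's correlation of log2(FPKM + 1), as a description in which the 4 group levels supply most of the variation. For Igf1 they were Cd72 (r = 0.997), Sbno2 (0.995) and Slc2a6 (0.987). Cd72 was at 4.60, 23.4, 0.257 and 1.03 FPKM on average in the order AST, A-iSC, P56-NPC and P0-NPC. For Igfbp2 the nearest genes were Zwilch, Pdia5 and Adamts5 (r = 0.995 to 0.996), and for Igfbp3 they were Tubb6, Itga5 and P4hb (0.996 to 0.997). Igf1r was followed by Jpt2, Ankrd50 and Rad23b (0.995 to 0.996) and Igf2r by Cdh2, Dpp3 and Slf2 (0.992). The nearest to Igfbp4 were Capn10, Tubb2b and Sfpq (0.983 to 0.985), to Igfbp5 Serpinb8, Rpl7l1 and Scpep1 (0.992 to 0.996), to Igfbp6 Arfgap1, Thbd and Spon2 (0.935 to 0.942), and to Igfbp7 Orc6, Cct2 and Rbm17 (0.971 to 0.988). Among the members themselves, r over the same samples was highest between Igfbp3 and Igfbp5 (0.953), Igf2r and Igfbp2 (0.950) and Igf1r and Igf2r (0.947), and lowest between Igf1 and Igfbp6 (-0.164).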

How the data were processed

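RNA-seq values were analysed for 12 samples in 4 groups of 3. The authors deposited 1 table of FPKM with gene lengths and positions. The values themselves gave the unit: FPKM multiplied by gene length and by 1 scaling constant per sample, estimated from the values, gave whole fragments for 100% of values within 0.01 fragments. The deposited FPKM values were already scaled between samples, with library sizes 0.744 to 1.22 times the recovered fragments. The submitters' processing notes name Bowtie 0.12.2 and mm8, but 54862 of the 55154 identifiers also found in GENCODE M21 had its position, so positions are on GRCm38. The strand setting is not given in the sources used here.

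Groups were compared 2 at a time, in 6 comparisons, with limma 3.58.1 in R 4.3.3 (lmFit, and eBayes with a trend) on log2(FPKM + 1), for genes whose mean reached 1 FPKM in either group. The threshold for a call was 0.05 for p-values adjusted by Benjamini-Hochberg over all genes tested. A log2 fold change is a difference on this scale and understates changes of low genes, so ratios of mean FPKM are given beside it. The methods of the study name DESeq2, which was not run here. The script was tested on simulated data. Intervals are at 95%, and floors of 3 fragments cover counting error only. Members, pathway genes and marker lists were chosen with earlier results of these data known. All 9 members were named, with the largest changes among called pathway genes and the 3 protein-coding genes most correlated with each member. Insr, Pappa, Igf2, Igf2bp1, Igfals and Igfbp1 were named after their values were seen.

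Alternatives were scaling by library size alone or upper quartile, a pseudocount of 0.1, no filter, all 4 groups in 1 model, the replicate number as a block, limma-voom on the recovered fragments, a log2 fold change beyond 1, and leaving out each sample. Promoters came from RefSeq windows of 300 bases, which matched all 9 members. Python 3.11.15 with numpy 2.4.6, pandas 2.3.3 and matplotlib 3.10.9 was used. All 12 samples were used, and the labels name no batch.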

Additional observations from a re-analysis of the deposited data

How the results depend on the processing

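Of 702 values of single genes under the alternatives, 671 kept their direction and their side of the threshold, 21 lost a call, 4 gained one and 6 changed sign without being called. Scaling by library size alone moved the median log2 fold change of all genes, from -0.059 to 0.13 for A-iSCs minus ASTs, 0.029 to 0.49 for A-iSCs minus P56-NPCs and 0.0058 to -0.53 for P56-NPCs minus P0-NPCs, and it turned Igfbp6 between A-iSCs and P56-NPCs to 0.031 and Igfbp2 between A-iSCs and P0-NPCs to -0.056. It also gave summed binding protein levels of 479.9 FPKM in A-iSCs, 72.4 FPKM in P56-NPCs and 343 FPKM in P0-NPCs. Igfbp2 between A-iSCs and P0-NPCs was -0.0052 under upper-quartile scaling, and from -0.19 to 0.29 when single samples were left out. With a log2 fold change beyond 1 required, 4 genes were called for A-iSCs minus P56-NPCs and 5 for P56-NPCs minus P0-NPCs. Calls lost or gained are given with the genes above, apart from those under the replicate block given next, and the cause was not tested.

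The replicate numbers did not pair the samples, since in no comparison were all 3 correlations of deviations above 0.1 (for ASTs and A-iSCs they were -0.378, 0.335 and 0.427). With the replicate number as a block, Igfbp7 between A-iSCs and P56-NPCs (adjusted p = 0.0540) and Igf1r between A-iSCs and P0-NPCs (adjusted p = 0.0572) were no longer called, Igfbp6 between P0-NPCs and ASTs was called (adjusted p = 0.0398), and the members called were 9, 9, 9, 7, 6 and 8 of 9 in the 6 comparisons. Leaving out 1 sample changed the number of members called by at most 1 in each comparison. With 3 samples a group, differences within these spreads were not detectable.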
